A study of Mus musculus with 25 samples.

Results

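The comparison described here sets mouse Ep5 (EpRas) tumour cells cultured with platelets against the same cells alone on Affymetrix exon arrays. Its members are the 5 arrays whose source name gives a tumour cell and platelet co-culture (titles PLT1 to PLT5) and the 5 arrays of tumour cells alone (Pipes1 to Pipes5), 10 of the 25 samples of the series. Each gene is represented by the probe set with 1 gene symbol and the highest mean level, which gave 18997 genes. The other samples are 3 exon arrays of cells that met platelets only when RNA was isolated, here called mixed at lysis (numbers 4 to 6). The rest are 12 gene arrays, of which the 3 with platelets and the 3 alone are used below. Ep5 (EpRas) cells are a line of mammary epithelial cells that carry an oncogenic Ras, and the labels give the background strain as C57BL/6. They were grown in DMEM with fetal calf serum in all groups. With platelets they were kept for 24 h with about 1000 platelets per cell, isolated by centrifugation from wild-type C57BL/6 mice, while the cells alone were sub-confluent and received none. The labels do not say whether replicates were separate cultures, so the p values reflect only how these samples varied, which may be technical.

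Platelets are cell fragments that store growth factors, among them TGF-beta and PDGF, together with chemokines and nucleotides in granules, and release them on activation. Carcinoma cells exposed to such factors can lose apical junctions, strengthen integrin contacts with the matrix and change the proteases they secrete, a shift called epithelial-mesenchymal transition. Platelets have no nucleus but carry RNA of their own, so RNA from a co-culture holds transcripts of both partners. In such bulk samples, fewer cells of a type and less RNA per cell cannot be told apart.

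The epithelial identity given in the labels was checked against markers. Of 11 measured epithelial markers, 9 had mean levels above 9 on the log2 scale in both groups, led by the keratins Krt8 (12.89 with platelets, 12.96 alone) and Krt18 (12.90 and 13.15), while Krt19 and Krt5 lay under the array medians of 3.62 to 3.90. The mean over the list was 9.79 ± 0.12 (SD, n = 5) with platelets and 9.70 ± 0.09 (n = 5) alone. The 12 fibroblast and endothelial markers averaged 3.54 ± 0.13 with platelets and 3.41 ± 0.07 alone, near the array medians. The 19 platelet markers stood at 5.66, 5.65, 6.11, 4.46 and 4.91 on platelets 1 to 5, against 3.65, 3.75, 3.66, 3.81 and 3.67 on alone 1 to 5, and at 5.16, 5.48 and 5.23 in cells mixed at lysis. Every array with platelets lay above every array of cells alone, and platelets 4 and 5 had the lowest values of the arrays with platelets (exact two-sided permutation p = 0.00794, the smallest that 5 against 5 can give, and 0.0536 adjusted over 15 tests of marker lists). The leukocyte list averaged 3.87 ± 0.06 with platelets and 3.63 ± 0.09 alone (the same p values), and 3.85 ± 0.03 (n = 3) mixed at lysis. Of its 14 genes 12 were higher with platelets, and 2 passed the limma threshold used below (14.3%, against 4.55% of all genes). Its defining gene Ptprc stood at 3.06 in both groups. The erythroid list of 6 genes averaged 5.64 ± 0.05 with platelets and 5.79 ± 0.10 alone (exact permutation p = 0.0317, adjusted p = 0.0794).

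**Figure D1:**
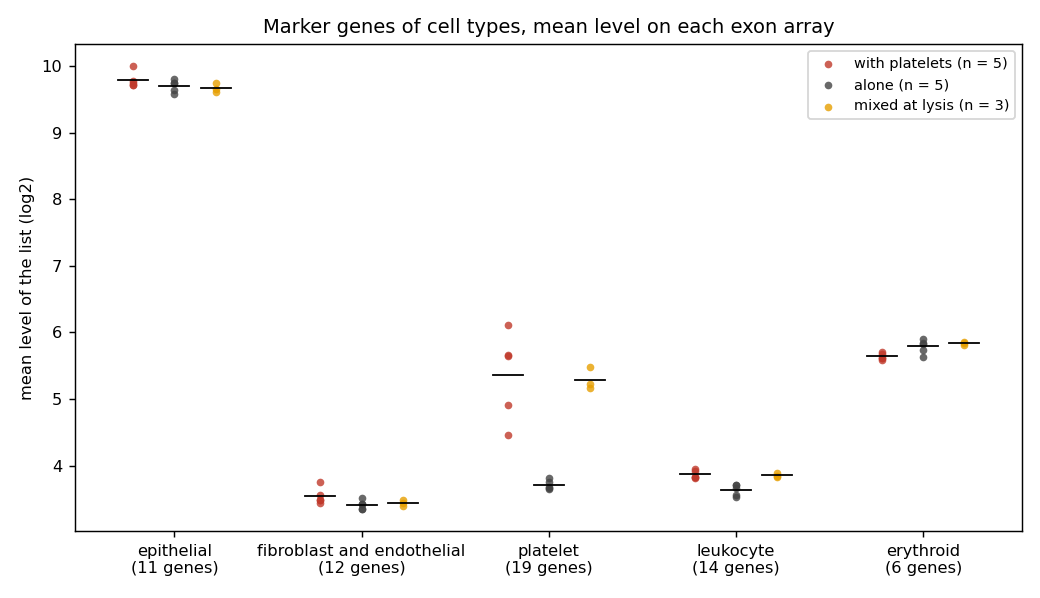
Mean log2 level of the marker genes of 5 cell types on each exon array, with platelets (n = 5), alone (n = 5) and mixed at lysis (n = 3). Points are arrays and bars are group means. The epithelial list lies between 9.59 and 10.00 on every array, and the platelet list between 4.46 and 6.11 with platelets, above the 3.65 to 3.81 of cells alone.

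With platelets, 864 genes passed the threshold of an adjusted p under 0.05 (limma, Benjamini-Hochberg over all genes), 4.55% of those tested. Of these, 394 were higher than in cells alone (2.07%) and 470 were lower (2.47%). Applying quantile normalization again turned this balance, to 452 higher and 361 lower. In each of the 13 fits that left out 1 exon array, 562 of the 864 passed again (2.96% of all genes tested), 247 higher (1.3%) and 315 lower (1.66%). Such genes are called kept below. Groups did not overlap for 1046 genes (5.51%; 2.42% higher and 3.09% lower), 735 of which were among the 864.

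The response was broad and mostly moderate in size. Among all genes the median difference was −0.00, and the middle 50% of genes lay between −0.10 and 0.09. The median rise was 0.83 and the median fall −0.78. A size of 1 log2 or more was reached by 155 rises and 146 falls, and a size over 3 by 7 rises and 4 falls. Among changes under 0.5 log2, 31 of 87 rises and 33 of 85 falls were kept. Between 2 and 3 log2, 22 of 22 rises and 25 of 26 falls were.

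Rises and falls were spread differently over levels. Genes were split into 4 equal classes by their mean level in cells alone, at 3.31, 4.55 and 7.91. In the lowest class 27 genes rose and 1 fell, and in the second 88 rose and 25 fell. In the third 164 rose and 224 fell, and in the top class 115 rose and 220 fell. A gene whose level alone lies near the background of the array can hardly fall further, and a rise from there understates the change.

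**Figure D2:**
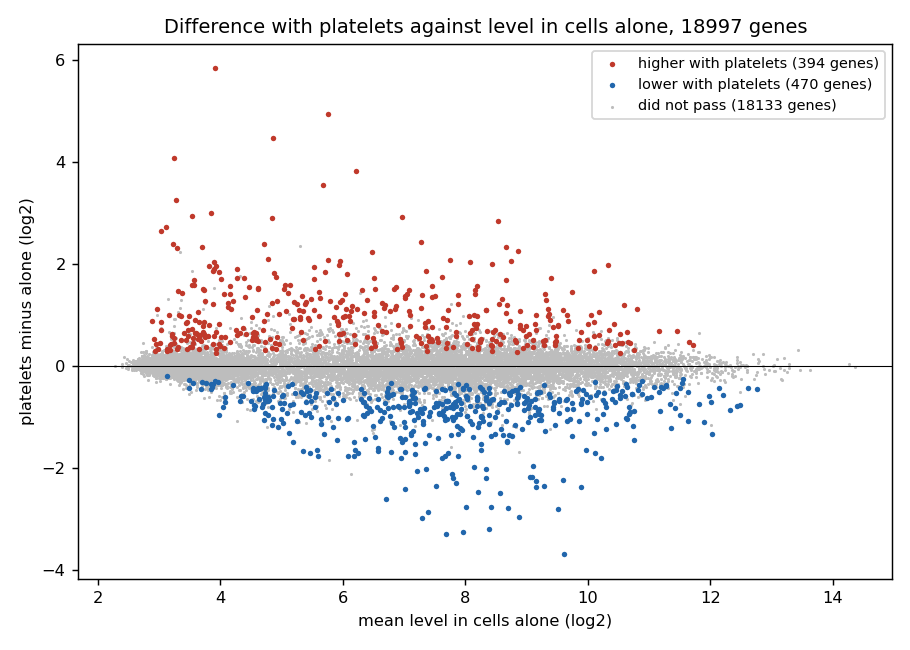
Difference between cells with platelets and cells alone (log2) against the mean level in cells alone (log2) for 18997 genes. Red points are the 394 genes past the threshold that were higher with platelets and blue points the 470 that were lower; grey genes did not pass. Few falls start below a level of 4.55, while rises start at all levels.

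Genes that these cells do not use gave few calls. Of 859 olfactory receptors, with a median level of 3.12 with platelets and 3.13 alone, limma called 0 (33 at an unadjusted p under 0.05), and of 118 vomeronasal receptors also 0 (6 unadjusted). Of 354 solute carriers, which move ions and metabolites across membranes, 5 rose and 15 fell (5.65%), close to the 4.79% of all genes without these receptors. Of 278 zinc finger genes with Zfp symbols, 6 rose and 5 fell (3.96%), also near that share. By chromosome the share past the threshold was 7% on chromosome 1 and between 3.54% and 5.61% on the other autosomes. On the X chromosome it was 1.52%, or 10 of 658 genes. The X-linked genes included moesin (Msn), which ties actin to the membrane, and the ephrin Efnb1, both higher with platelets.

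Calls were also made without some of the arrays and then set against the arrays left out. When both arrays of a replicate number were left out of the fit, between 212 and 367 genes were called higher and between 258 and 393 lower in the remaining arrays. In the pair left out, 89.9% to 100% of the called rises were above 0, and 91.1% to 100% of the called falls were below 0. Of all genes, 42.1% to 53.1% were above 0 in these pairs and 46.9% to 57.9% were below 0. The lowest shares came from number 4 (330 of 367 rises) and number 1 (347 of 381 falls). Numbers 1 to 3 alone gave 922 genes and numbers 4 and 5 gave 27, with n = 2 in each group. Of the genes called in numbers 1 to 3, 434 of 463 rises and 450 of 459 falls had the same sign in numbers 4 and 5. Of all genes, 47.4% were above 0 there and 52.6% below. The called genes had a median there of 0.63 for the rises, against 0.86 where they were called. For the falls it was −0.76, against −0.77. A test of the difference in response between these sets of numbers, added after the data were seen, gave 0 genes by limma (1356 at an unadjusted p under 0.05, lowest adjusted p = 0.0803).

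Other samples, on the gene arrays, mostly had the same sign with smaller differences. Of the 394 rises, 384 were measured there, and 362 of these were above 0, while 50.5% of all shared genes were. Of the 470 falls, 458 were measured and 435 were below 0. The median difference on the gene arrays was 0.31 for the rises and −0.27 for the falls, against 0.82 and −0.79 for the same genes on the exon arrays. The gene arrays on their own gave 133 genes (0.667%), and 454 (2.28%) with the replicate number as a block. Among the 17491 genes of both array types, 125 passed on the gene arrays (0.715%). Of the genes changed on the exon arrays, 53 rises and 39 falls passed on the gene arrays in the same direction (116 and 130 with the block), and 0 passed in the opposite one. The platelet tags of alone 8 and platelets 9 on the gene arrays contradict their source names. Without these arrays 30 genes passed, and the same-sign counts were 335 of 384 and 421 of 458. The platelet markers had a median difference of 0.06 on the gene arrays, with 11 of 17 above 0. On the exon arrays their median was 1.31, with 19 of 19 above 0. The array types also differ in probes and processing. The part of any of these in the smaller differences was not tested.

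**Figure D3:**
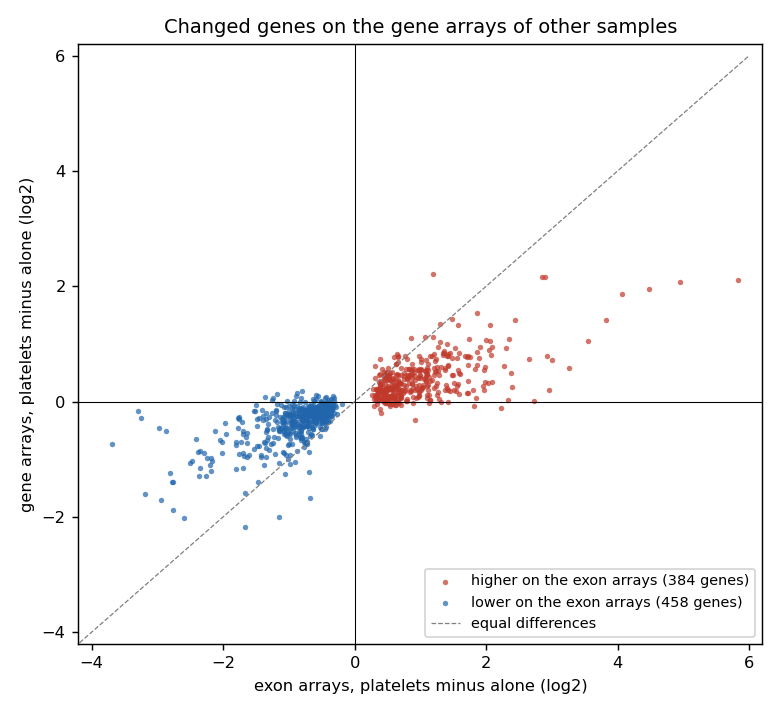
Difference between cells with platelets and cells alone on the exon arrays (x axis, log2, n = 5 each) and on the gene arrays of other samples (y axis, log2, n = 3 each), for the genes past the threshold on the exon arrays. Red points were higher and blue points lower on the exon arrays. Most points keep their sign, and their median on the y axis is 0.31 for the rises and −0.27 for the falls.

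Cells mixed with platelets at lysis hold platelet RNA without the culture of 24 h. They share the arrays of cells alone with the main comparison, so the values are given side by side. The chemokine gene Pf4, a granule product of platelets, stood at 7.75, 7.77, 7.62, 6.49 and 6.98 with platelets, against 3.33, 3.28, 3.15, 3.36 and 3.13 alone, and at 8.32, 8.06 and 8.06 in cells mixed at lysis. Alox5ap, which feeds arachidonic acid to leukotriene synthesis, was 2.95 above cells alone with platelets and 3.13 above them mixed at lysis. For Laptm5, a lysosomal protein of blood cells, these differences were 2.33 and 3.27, and for Rgs10, a brake on G protein signalling, 1.01 and 0.74. None of these 4 genes passed with platelets against mixed at lysis (adjusted p = 0.106 for Pf4, 0.896 for Alox5ap, 0.473 for Laptm5 and 0.386 for Rgs10). Platelets against mixed at lysis gave 699 genes (3.68%), and mixed at lysis against alone gave 9 (0.0474%), a count that fell to 1 without mixed at lysis 6. Past both alone and mixed at lysis in 1 direction, with the platelet arrays shared by both tests, were 241 rises and 329 falls (3%). In every fit that left out 1 array, 304 of these 570 passed both again, and platelets against mixed at lysis gave 397 genes without mixed at lysis 6.

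Behind the 10 strongest rises, led by Mmp9, Ctsw and Ccn4, the next 10 genes past both controls joined regulators, adhesion genes and metal-binding genes. Ranked genes in both directions were taken only where the arrays of the groups do not overlap, so that this separation follows from the choice. The clock-linked repressor Bhlhe40 had 11.18, 11.15, 11.27, 10.82 and 11.20 with platelets, against 8.93, 8.68, 8.87, 8.53 and 9.30 alone. The groups lie more than 1.5 log2 apart, and the difference was 2.26 ± 0.14 (SE, adjusted p = 2.31e-06). Its close relative Bhlhe41 did the reverse, with 6.08, 5.19, 5.31, 4.99 and 6.44 with platelets, against 7.76, 7.38, 7.58, 7.36 and 8.93 alone. Here too the groups did not overlap (−2.20 ± 0.38, adjusted p = 0.00474). On the gene arrays the 2 repressors again differed in sign, at 0.62 ± 0.30 and −1.10 ± 0.48, without passing (adjusted p = 0.548 and 0.487). Of 19 clock genes 2 rose, Bhlhe40 and Nfil3, a repressor of circadian output (1.12 ± 0.13), and 1 fell (15.8%, against 4.55% of all genes). Clock itself differed by −0.13 ± 0.16.

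Eif4e3, a cap-binding protein of translation, had 8.50, 8.12, 8.27, 9.36 and 9.30 with platelets, against 6.91, 6.86, 6.95, 6.03 and 5.64 alone. Numbers 4 and 5 lie highest with platelets and lowest alone, so the difference of 2.23 ± 0.31 was larger in them than in numbers 1 to 3. On the gene arrays it was −0.11 ± 0.08, but there the levels with platelets and alone were 4.67 to 5.05. These lie below the gene-array medians of 5.56 to 5.63, where a change can hardly be seen. Tmeff1, a membrane protein with follistatin-like domains, rose by 2.08 ± 0.25, and Ust, which sulfates uronic acid in dermatan chains, by 2.06 ± 0.24. The serine protease gene Prss46 rose by 2.03 ± 0.14, to 5.94 with platelets against 3.91 alone, a level near the array medians.

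**Figure D4:**
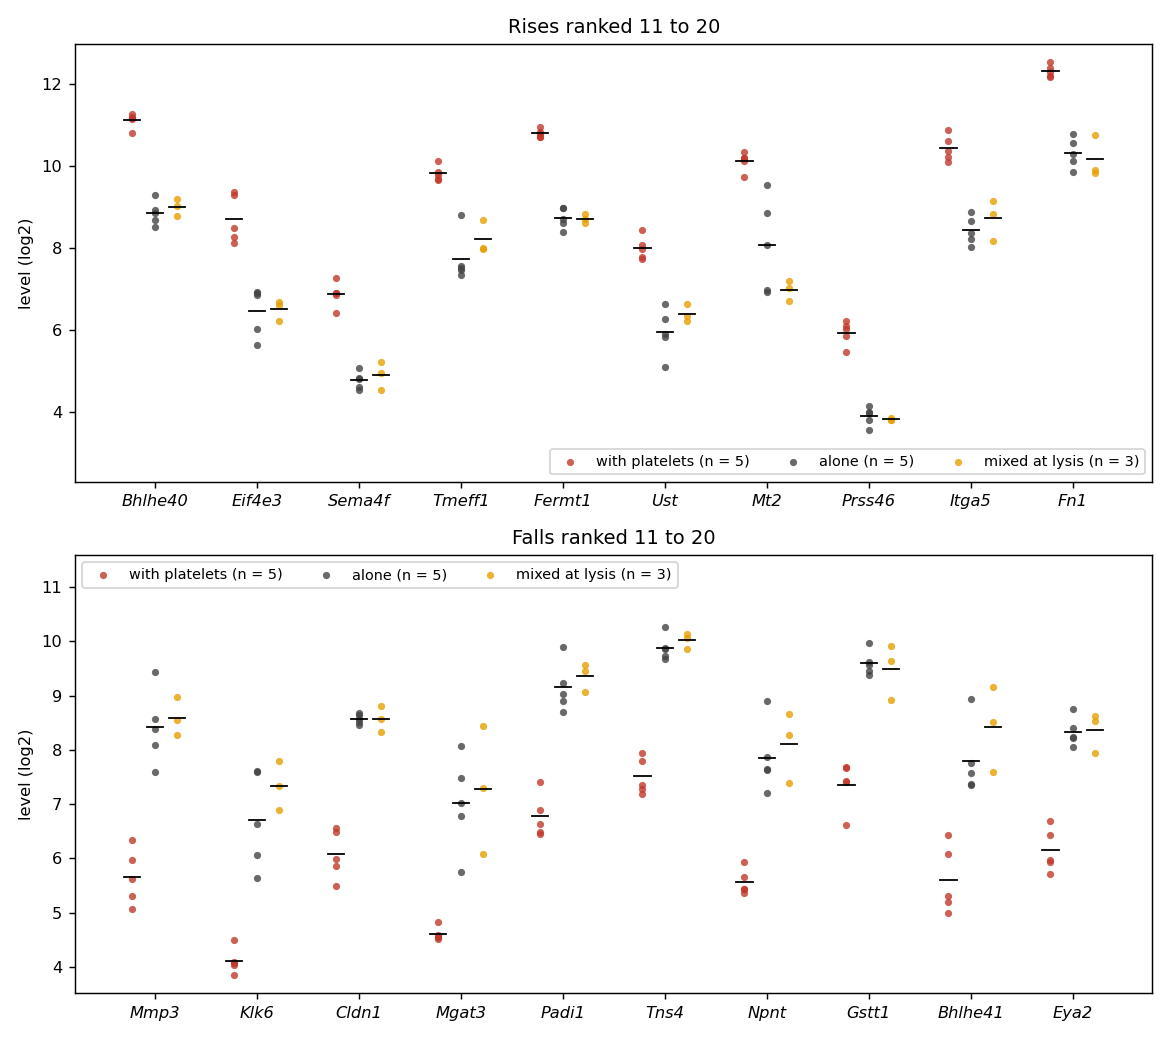
Level (log2) on each exon array of the genes ranked 11 to 20 by size among rises (top) and falls (bottom) past both controls, with platelets (n = 5), alone (n = 5) and mixed at lysis (n = 3). Points are arrays and bars are group means. Genes were chosen among those with no overlap between arrays with platelets and alone, and alone 4 of Tmeff1 lies at 8.80, above the other arrays of cells alone.

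Genes of contacts with the matrix passed the threshold in a larger share than all genes did. This list and the others were chosen with earlier results of these data known, so such shares are a description only. List counts are for platelets against alone unless mixed at lysis is named. Of 26 integrin and focal adhesion genes, 7 rose and 3 fell, 38.5% where 4.55% of all genes passed. Of these, 6 rises and 3 falls were kept, 9 changes also passed against mixed at lysis, and the median of the list was 0.22. In cells alone the median level of the list was 8.78. Among all genes in the top class of level, above 7.91, 2.42% rose and 4.63% fell. In the third class, from 4.55 to 7.91, 3.45% rose and 4.72% fell. For lists of genes at such levels, the share over all genes is a low reference, here and below. Fermt1 (kindlin-1), which activates integrins at focal adhesions, had 10.84, 10.96, 10.80, 10.72 and 10.70 with platelets, against 8.40, 8.98, 8.98, 8.62 and 8.72 alone. That is a difference of 2.06 ± 0.11 (adjusted p = 4.58e-07), and the gene arrays gave 1.32 ± 0.18 (adjusted p = 0.0101). The fibronectin receptor subunit Itga5 had 10.22, 10.37, 10.10, 10.60 and 10.89 with platelets, against 8.67, 8.22, 8.38, 8.04 and 8.89 alone. Its ligand fibronectin (Fn1) had 12.17, 12.30, 12.21, 12.38 and 12.53 with platelets, against 10.78, 10.13, 10.29, 9.87 and 10.57 alone. The differences were 2.00 ± 0.21 for Itga5 and 1.99 ± 0.20 for Fn1. On the gene arrays they were 1.07 ± 0.38 for Itga5 and 0.59 ± 0.15 for Fn1, without passing (adjusted p = 0.327 and 0.121). The collagen receptor subunit Itga2 rose by 0.83, the TGF-beta-activating subunit Itgb6 by 0.99, and Itgb3, which platelets also carry, by 1.43. The shared partner Itgb1 differed by 0.41 ± 0.15 without passing (adjusted p = 0.217).

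Falls in this group were few but large. Tns4, a tensin that lacks the actin-binding domain of its relatives, had 7.28, 7.18, 7.35, 7.94 and 7.80 with platelets, against 9.73, 9.88, 9.68, 9.86 and 10.27 alone (−2.37 ± 0.16, adjusted p = 4.77e-06). It was lower on every array with platelets, and passed on the gene arrays as well (−1.30 ± 0.18, adjusted p = 0.0101). The actin-binding relative Tns1 rose by 1.84. Npnt (nephronectin), a basement membrane ligand of integrins, fell by 2.28 ± 0.30. Of 36 collagen and basement membrane genes, 2 rose and 3 fell (13.9%). The anchoring fibril collagen Col7a1 rose by 1.25 ± 0.13, the crosslinking enzyme Loxl4 fell by 0.96 ± 0.20 and the collagen prolyl hydroxylase subunit P4ha2 fell by 0.94 ± 0.14. Col4a1 lay at 3.62 with platelets and 3.57 alone, under the array medians.

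Tight junction and polarity genes were mostly lower where they passed. Of 35 tight junction and polarity genes 9 fell and 1 rose (28.6%), 7 falls and the rise being kept, with a list median of −0.24, and of −0.12 when the gene arrays were used. Claudin-1 (Cldn1), which seals tight junctions, had 6.56, 5.49, 5.99, 5.86 and 6.49 with platelets, against 8.56, 8.69, 8.64, 8.47 and 8.52 alone. The groups did not overlap, and the difference of −2.50 ± 0.18 (adjusted p = 8.22e-06) was −1.07 ± 0.15 on the gene arrays (adjusted p = 0.0101). Another claudin, Cldn4, was the exception and rose by 0.45 ± 0.09. The scaffold gene Tjp1 differed by 0.03 ± 0.12.

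The apical polarity gene Crb3 had 6.30, 5.99, 5.95, 5.65 and 5.62 with platelets, against 7.29, 8.18, 7.55, 7.81 and 7.48 alone (−1.76 ± 0.18, adjusted p = 0.00012). Every array with platelets was below the lowest array of cells alone. Mal2, which carries proteins to the apical membrane, fell by 1.27 ± 0.24. Of 34 epithelial transcription factors 6 fell and 3 rose (26.5%), 4 falls and 1 rise being kept. Elf3, an epithelial ETS factor, had 6.14, 6.12, 6.16, 5.89 and 6.47 with platelets, against 6.83, 7.35, 7.26, 7.78 and 8.57 alone (−1.40 ± 0.26, adjusted p = 0.00681). The luminal factor Gata3 fell by 1.24 ± 0.15, and the ETS factor Ehf rose by 1.57 ± 0.29. None of these 3 factors passed on the gene arrays, where Gata3 differed by 0.05 ± 0.20. Grhl2 differed by −0.33 ± 0.20 without passing.

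Crb3 and Elf3 are shown with their promoters because Snail and Zeb repressors are known to bind the E-box CAGGTG in genes of this kind. The sequences are from RefSeq (build GRCm38.p6), 250 bases before to 50 after the annotated start, in the gene's direction, with each CAGGTG of either strand in capitals. They cover chr17:57061951-57062250 on the plus strand for Crb3 and chr1:135258423-135258722 on the minus strand for Elf3.
Crb3: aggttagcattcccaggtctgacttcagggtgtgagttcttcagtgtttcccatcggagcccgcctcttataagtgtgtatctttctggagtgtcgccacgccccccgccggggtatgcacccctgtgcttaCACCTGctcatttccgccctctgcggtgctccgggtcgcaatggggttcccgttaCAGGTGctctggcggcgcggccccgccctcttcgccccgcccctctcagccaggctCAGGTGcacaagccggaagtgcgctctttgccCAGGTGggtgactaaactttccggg
Elf3: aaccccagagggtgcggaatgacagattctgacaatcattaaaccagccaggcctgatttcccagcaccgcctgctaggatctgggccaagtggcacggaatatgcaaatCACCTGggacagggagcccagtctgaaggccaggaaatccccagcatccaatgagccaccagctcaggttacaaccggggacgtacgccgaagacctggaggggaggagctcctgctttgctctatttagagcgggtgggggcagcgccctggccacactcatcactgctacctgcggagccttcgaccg

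Crb3 holds 4 of these E-boxes, whose first bases lie at −118, −63, −7 and 25 from the start, and Elf3 holds 1 at −140. Over all 14964 genes with a promoter in the table, 19.3% hold CAGGTG on either strand in this window. The share was 26.9% among the falls (97 of 361) and 31.5% among falls of at least 1 log2 (35 of 111). Among the rises it was 16.8% (51 of 304). Base composition also differed, with a median GC content of 62% among rises, 62.3% among falls and 57.7% among all genes, and its part in the shares was not tested. The E-box was 1 of several motifs counted in these promoters, and the shares were not compared by a test. The GC box GGGCGG stood in 63.2% of rises and 65.4% of falls, against 50.6% of all promoters. NF-kappaB motifs stood in 13.82% of rises and 13.02% of falls, against 9.28% of all promoters. For TGACGTCA these shares were 0.987% and 1.39%, against 2.41%. For GGAATG they were 11.84% and 13.57%, against 13.21%. A match of 6 letters is a description of the sequence and does not show that a factor binds there.

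Of 45 cell adhesion molecules 8 rose and 0 fell by limma (17.8%, with 6 kept and 5 also past mixed at lysis). Nectin3 and Nectin4, immunoglobulin-type partners at adherens junctions, rose by 1.41 ± 0.11 and 1.40 ± 0.15. Nectin3 had 5.36, 5.71, 5.55, 5.43 and 5.84 with platelets, against 4.04, 4.04, 4.06, 4.44 and 4.26 alone, and the gene arrays gave 1.00 ± 0.10 (adjusted p = 0.00209). Its groups stand clear of each other on both array types. Dsg2 and Pkp1 of the desmosome rose by 0.47 and 0.46, and Mcam, an endothelial and tumour adhesion molecule, by 1.30. The classical cadherin Cdh1 differed by −0.15 ± 0.24. Of 26 caveolar and membrane-skeleton genes 2 rose and 4 fell (23.1%): Msn (0.69 ± 0.09) and Epb41l2 (0.88 ± 0.09), both linkers of actin to the membrane, rose, and Cavin2, a coat protein of caveolae, fell by 2.25 ± 0.35. Cavin2 passed on the gene arrays too (−1.28 ± 0.16, adjusted p = 0.008), while Cav1 differed by −0.25 ± 0.08 without passing.

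Ligands of growth factor receptors changed in both directions. Of 30 receptor tyrosine kinase ligands and receptors outside the epidermal growth factor (EGF) family, 6 rose and 3 fell (30%), with all 6 rises kept. The platelet-derived growth factor Pdgfa had 9.51, 9.72, 9.53, 9.86 and 10.22 with platelets, against 8.32, 8.40, 8.29, 8.78 and 8.97 alone (1.21 ± 0.17, adjusted p = 0.00084). Pdgfb rose by 1.15, Pdgfc by 0.91 and Hgf, the ligand of Met, by 0.86, so that 3 of the PDGF genes rose. Kitl, the stem cell factor, fell by 1.70 ± 0.18, and the receptor gene Met fell by 0.37 ± 0.08. Against cells mixed at lysis Pdgfa differed by 0.65 without passing (adjusted p = 0.0998).

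In the EGF family 5 of 15 genes fell and 1 rose (40%), and 3 of the falls were kept, with a list median of −0.41. Only 2 of these changes also passed against mixed at lysis in the same direction. Numbers 1 to 3 gave a list median of −0.54, numbers 4 and 5 one of −0.25, and the gene arrays one of −0.12. Ereg had 7.46, 7.32, 7.55, 6.90 and 7.21 with platelets, against 7.85, 8.66, 8.66, 8.55 and 7.68 alone (−0.99 ± 0.20, adjusted p = 0.0131). Alone 1 and alone 5 lie nearest to the arrays with platelets. Btc fell by 0.98 ± 0.20 and Nrg1 by 1.07 ± 0.22. Epgn, Ereg and Btc, ligands of the EGF receptor family, are neighbours on chromosome 5, and all 3 fell, though Epgn was not kept. The receptor Egfr was 0.38 ± 0.09 higher (adjusted p = 0.0357), and mixed at lysis it was 0.22 above cells alone (limma adjusted p = 0.945). Egfr did not pass in the fits that left out platelets 1, 2, 4 or 5, 1 of alone 1 to 4, or mixed at lysis 5 (adjusted p up to 0.0988).

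Feedback and immediate early genes of the ERK pathway changed in both directions. Of 33, 3 rose and 5 fell (24.2%), and 2 rises and 3 falls were kept. Quantile normalization applied again turned this to 4 rises and 2 falls, with a list median of −0.08 against −0.17. The phosphatase Dusp1 had 8.59, 8.44, 8.96, 8.32 and 8.76 with platelets, against 9.18, 9.77, 9.65, 9.41 and 9.62 alone (−0.91 ± 0.14, adjusted p = 0.00173). Its relative Dusp2 rose by 1.28 ± 0.12 and the AP-1 subunit Fos by 1.24 ± 0.13, both from levels near the array medians. Dusp6 differed by −0.84 ± 0.27 without passing (adjusted p = 0.121). In the insulin-like growth factor (IGF) group, 3 of 18 fell and 1 rose (22.2%), with the falls kept. The docking protein Irs1 fell by 1.80 ± 0.21, the binding protein Igfbp4 by 1.09 ± 0.17 and Igf2r, which clears IGF-II, by 0.80 ± 0.12. The receptor Igf1r differed by 0.17 ± 0.19.

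Of 28 genes of bone morphogenetic protein (BMP) signalling and Id genes, 4 rose and 5 fell (32.1%), or 4 and 3 after quantile normalization. Of the changes in the main fit, 4 also passed against mixed at lysis in the same direction. The falls included a ligand, an antagonist and Id targets. The ligand Bmp4 had 6.19, 5.57, 5.95, 5.38 and 5.20 with platelets, against 7.49, 7.46, 7.42, 7.13 and 6.44 alone (−1.53 ± 0.26, adjusted p = 0.00361). The antagonist follistatin (Fst) had 7.30, 6.63, 7.78, 6.68 and 6.23 with platelets, against 9.77, 9.67, 9.70, 9.16 and 8.10 alone (−2.36 ± 0.38, adjusted p = 0.00266). In both genes alone 5 was the lowest array of cells alone, and the groups still did not overlap. Id1, an inhibitor of helix-loop-helix factors induced by BMP, fell by 0.87 ± 0.13, while the type I receptor Acvr1 rose by 1.05. The inhibitory Smad6 rose by 0.38. On the gene arrays Bmp4 and Fst differed by −0.83 ± 0.22 and −1.16 ± 0.29 without passing (adjusted p = 0.145 and 0.119), and Id1 by −0.07 ± 0.12.

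Guidance cues first known from axons gave 5 rises and 7 falls of 47 (25.5%), with 5 and 5 kept, or 6 and 4 after quantile normalization. The membrane-bound semaphorin Sema4f had 6.87, 6.91, 6.90, 6.42 and 7.28 with platelets, against 4.63, 4.54, 4.84, 5.09 and 4.82 alone (2.09 ± 0.17, adjusted p = 1.73e-05). The netrin Ntn1 had 6.28, 5.90, 6.05, 5.99 and 6.35 with platelets, against 7.74, 8.03, 7.30, 7.41 and 8.93 alone (−1.77 ± 0.29, adjusted p = 0.00297). Neither gene's groups overlapped. The secreted semaphorins Sema3e and Sema3c fell by 1.34 and 1.11 and their co-receptor Nrp1 by 0.92. The class 4 semaphorin Sema4c rose by 0.80 and Sema4b fell by 0.51, so the class did not move as one. The ephrin Efnb1 rose by 1.11 ± 0.16.

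Proteases of the matrix and their neighbours on chromosome 9 differed in direction. The stromelysin Mmp3 had 5.31, 5.07, 5.62, 5.97 and 6.34 with platelets, against 7.59, 8.39, 8.10, 9.44 and 8.58 alone (−2.76 ± 0.32, adjusted p = 0.000266). Mmp10, also a stromelysin, had 6.39, 6.88, 6.55, 6.56 and 7.14 with platelets, against 4.46, 4.64, 4.26, 5.89 and 5.17 alone. The collagenase Mmp13 had 5.40, 5.83, 5.37, 5.57 and 7.34 with platelets, against 3.54, 3.72, 3.57, 4.32 and 4.51 alone. In none of the 3 did the groups overlap, and Mmp10 and Mmp13, which were named after their values were seen, rose by 1.82 and 1.97. Against cells mixed at lysis their differences were 1.25 (adjusted p = 0.0546) and 1.56 (adjusted p = 0.0512). On the gene arrays Mmp3 differed by −1.40 ± 0.48, Mmp10 by −0.08 ± 0.34 and Mmp13 by 0.21 ± 0.36, none past the threshold.

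Their promoters are shown because all 3 genes hold the AP-1 motif TGANTCA close to the start, whichever way they moved. The RefSeq sequences (GRCm38.p6, plus strand, 250 bases before to 50 after the start) lie at chr9:7445572-7445871 for Mmp3, chr9:7502092-7502391 for Mmp10 and chr9:7272264-7272563 for Mmp13, with the motif in capitals.
Mmp3: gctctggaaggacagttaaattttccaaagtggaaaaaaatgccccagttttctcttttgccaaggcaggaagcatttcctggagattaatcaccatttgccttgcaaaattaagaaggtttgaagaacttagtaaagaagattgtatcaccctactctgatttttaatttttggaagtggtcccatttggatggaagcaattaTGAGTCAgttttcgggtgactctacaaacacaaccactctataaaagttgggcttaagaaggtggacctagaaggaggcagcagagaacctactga
Mmp10: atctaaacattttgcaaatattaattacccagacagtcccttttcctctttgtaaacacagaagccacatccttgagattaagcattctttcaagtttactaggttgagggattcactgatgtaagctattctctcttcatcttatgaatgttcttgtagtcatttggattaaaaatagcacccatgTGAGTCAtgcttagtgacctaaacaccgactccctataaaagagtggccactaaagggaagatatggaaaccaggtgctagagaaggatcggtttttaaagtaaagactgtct
Mmp13: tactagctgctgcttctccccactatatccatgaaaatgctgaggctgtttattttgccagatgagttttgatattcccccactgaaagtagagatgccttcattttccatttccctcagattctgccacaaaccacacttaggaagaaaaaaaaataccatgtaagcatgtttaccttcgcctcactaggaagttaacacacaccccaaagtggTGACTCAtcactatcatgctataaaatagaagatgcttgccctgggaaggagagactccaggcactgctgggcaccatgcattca

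The motif starts at −46 in Mmp3, −63 in Mmp10 and −35 in Mmp13. On either strand, it stands in 6.96% of all promoters, 7.24% of those of the rises and 9.70% of those of the falls. Klk6, a serine protease of the kallikrein family, had 3.84, 4.09, 4.03, 4.50 and 4.08 with platelets, against 5.65, 6.63, 6.05, 7.62 and 7.59 alone (−2.60 ± 0.35, adjusted p = 0.000794). With platelets it lay near the array medians, and it passed on the gene arrays (−2.02 ± 0.34, adjusted p = 0.0238). The inhibitor of metalloproteinases Timp3 rose by 1.69 ± 0.20, and of 29 protease inhibitors 2 rose and 1 fell (10.3%).

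Among enzymes that detoxify aldehydes and foreign compounds, falls outnumbered rises. Of 54 measured, 9 fell and 1 rose (18.5%), with 8 falls and the rise kept. Below 0 were 48 of the 54, against 50.5% of all genes, and 33 of 54 on the gene arrays, and the list median was −0.14, and −0.07 on the gene arrays. The glutathione transferase Gstt1 had 7.69, 7.40, 7.67, 6.61 and 7.42 with platelets, against 9.56, 9.46, 9.38, 9.97 and 9.62 alone (−2.24 ± 0.23, adjusted p = 8.86e-05). Platelets 4 had the lowest level and alone 4 the highest. Its neighbour on chromosome 10, Gstt3, fell by 1.23, and the microsomal Mgst2 by 1.53 ± 0.25. Against this, Gsto1, the omega-class transferase, rose by 0.42 ± 0.09 from a high level, and by 0.56 ± 0.10 on the gene arrays (adjusted p = 0.0274). The epoxide hydrolase Ephx1 fell by 1.32 ± 0.20. The receptor gene Ahr, which induces many such enzymes, differed by 0.50 ± 0.15 without passing (adjusted p = 0.098).

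Among genes that handle metals, the kept changes were rises. Of 32 genes of metal handling 4 rose and 2 fell (18.8%), and 3 rises and 0 falls were kept. The metallothionein Mt2 had 10.19, 10.20, 10.36, 9.73 and 10.12 with platelets, against 9.54, 8.85, 8.08, 6.98 and 6.94 alone, and 7.04, 7.20 and 6.71 mixed at lysis. Arrays with platelets were alike, while those of cells alone spread widely without reaching them (2.04 ± 0.43, adjusted p = 0.0153). Slc30a1, a zinc exporter that responds to metals as metallothioneins do, had 6.92, 6.92, 7.04, 6.12 and 6.62 with platelets, against 5.13, 5.70, 5.19, 4.84 and 4.84 alone (1.59 ± 0.19, adjusted p = 0.000333). Mt1 rose by 0.91 ± 0.19, with overlapping groups. On the gene arrays Mt2 and Slc30a1 differed by 0.90 ± 0.84 and 0.50 ± 0.44 without passing.

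Glycan enzymes changed in both directions, with 4 rises and 5 falls of 52 (17.3%), 4 and 4 of them kept. Mgat3, which adds the bisecting residue of N-glycans, had 4.58, 4.82, 4.55, 4.52 and 4.56 with platelets, against 7.47, 7.03, 6.78, 5.75 and 8.08 alone (−2.42 ± 0.44, adjusted p = 0.00591). The level was nearly the same on all arrays with platelets. The sialyltransferases St3gal1, St3gal4 and St3gal5 fell by 1.35, 1.24 and 0.98. The hyaluronan synthase Has2 had 11.36, 11.14, 10.94, 10.84 and 11.35 with platelets, against 9.36, 9.37, 9.44, 9.93 and 8.90 alone (1.72 ± 0.17, adjusted p = 8.85e-05). Ext1, which builds heparan sulfate chains, rose by 0.98 ± 0.19.

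Receptors and enzymes of extracellular nucleotides gave 1 rise, of the ectonucleotidase Nt5e, and 3 falls of 19 (21.1%). Entpd3, which hydrolyses ATP outside the cell, fell by 1.35 ± 0.26, and the nucleotide receptor P2ry2 by 1.34 ± 0.27 with platelets 5 inside the range of cells alone. In G protein signalling 4 of 42 rose and 1 fell (11.9%), among them Rgs12 (1.496 ± 0.11), with the adenylate cyclase Adcy3 lower by 1.51 ± 0.28. Of 36 apoptosis genes 2 rose and 2 fell (11.1%), with Bcl2, which blocks apoptosis, lower by 0.88 ± 0.09 and the only one kept. Of 25 p53 targets 1 rose and 2 fell (12%): Gadd45a, a stress gene, rose by 1.34 ± 0.29, and the kinase Plk3 fell by 1.17 ± 0.15. In lipid synthesis and storage, 3 of 37 fell (8.11%): the endothelial lipase Lipg by 1.09 ± 0.17, the triglyceride enzyme Dgat1 by 0.84 ± 0.17 and the elongase Elovl6 by 0.75 ± 0.15. Fasn, which makes fatty acids, differed by −0.01 ± 0.18.

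Cytokine genes and their signals changed in both directions, and some of these changes were not kept. Of 34 cytokines and chemokines 3 rose and 3 fell (17.6%), but 1 rise and 2 falls were kept. Il24 had 10.70, 10.36, 10.96, 10.75 and 10.28 with platelets, against 10.93, 11.63, 11.45, 11.51 and 11.19 alone (−0.73 ± 0.16, adjusted p = 0.0163), with platelets 3 just above alone 1. The gene arrays gave −0.71 ± 0.13 (adjusted p = 0.0297). The chemokine Ccl9 rose by 1.07 ± 0.18. Of 24 genes of JAK and STAT3 signalling 1 rose and 3 fell (16.7%; 2 and 1 after quantile normalization), of which the kinase Pim3 (−0.88 ± 0.15) was the only one kept, and Socs3 differed by 0.14 ± 0.17. Of 28 interferon and antigen presentation genes 1 rose and 1 fell (7.14%), and 0 were kept.

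The lists of the cell cycle, oxidative phosphorylation and ribosome biogenesis held no gene that passed. Of 40 cell cycle genes limma called 0, with 3 at an unadjusted p under 0.05 and a median of −0.01, and the proliferation marker Mki67 differed by −0.30 ± 0.20. Of 32 genes of oxidative phosphorylation it called 0, with 4 at an unadjusted p under 0.05, yet 30 of the 32 were below 0 and the median was −0.24. The same genes had a median of −0.19 in cells mixed at lysis against alone and of −0.04 on the gene arrays. Of 28 genes of ribosome biogenesis and Myc it called 0, with 6 at an unadjusted p under 0.05, while 25 were above 0 and the median was 0.18. Mixed at lysis against alone gave −0.10 for these, and the gene arrays 0.10. Myc itself differed by 0.22 ± 0.12 (adjusted p = 0.478). Because single genes of these lists did not pass, these shifts are given as a description only. Other lists of metabolism and upkeep held a few calls: 2 of 26 genes of the tricarboxylic acid cycle and pyruvate entry fell (7.69%), 1 of 24 of fatty acid oxidation fell (4.17%), 1 of 22 heat shock chaperones fell (4.55%), and 1 of 33 lysosomal and autophagy genes rose and 2 fell (9.09%).

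**Figure D5:**
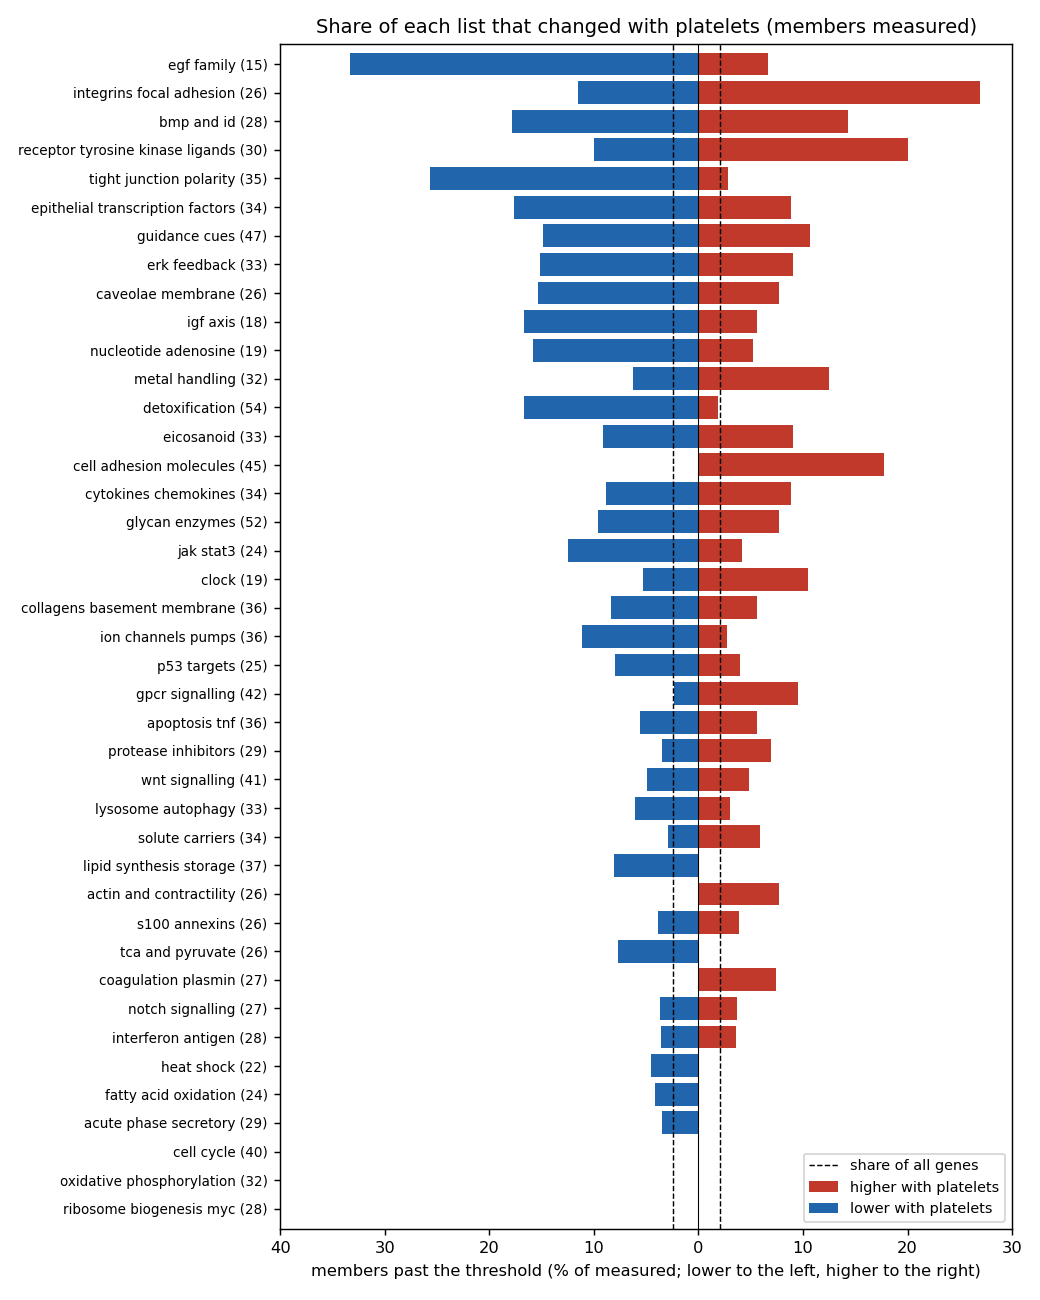
Share of the measured members of 41 gene lists that passed the threshold, lower with platelets to the left (blue) and higher to the right (red), with the number measured in brackets. Dashed lines mark the share of all 18997 genes, 2.47% lower and 2.07% higher. Among genes with a level alone above 7.91 the shares were 4.63% lower and 2.42% higher. From 4.55 to 7.91 they were 4.72% and 3.45%. Shares are for platelets against alone, and the lists were chosen with earlier results of these data known. Lists of the EGF family, integrins and tight junctions lie far outside the lines. Of the genes that passed in these lists, 2, 9 and 8 also passed against mixed at lysis in the same direction. The cell cycle, oxidative phosphorylation and ribosome biogenesis lists have no bar.

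The genes with the highest levels alone are described for their position on the scale. The 5 rises with the highest level alone were Gsto1, the actin-binding tropomyosin Tpm1 (0.47 ± 0.10), Msn, Ivns1abp and Pmepa1, a membrane protein induced by TGF-beta (1.11 ± 0.24). Pmepa1 had 11.82, 11.77, 11.62, 12.03 and 12.36 with platelets, against 10.97, 10.64, 10.58, 10.35 and 11.49 alone. The call of Ivns1abp (0.68 ± 0.16, adjusted p = 0.0303) was lost without platelets 1, 2 or 3 or alone 5 (adjusted p up to 0.0831). The 5 falls with the highest level alone were the lysosomal protease Ctsd (−0.44 ± 0.09), the desmosomal p53 target Perp (−0.43 ± 0.08), Emp1, the surface protein Msln (−0.77 ± 0.10) and the glutathione transferase Gsta4 (−0.87 ± 0.14). Msln had 11.80, 11.71, 11.81, 11.61 and 11.36 with platelets, against 12.36, 12.44, 12.48, 12.44 and 12.42 alone, so a fall of under 1 log2 stood clear of the spread. Emp1 (−0.76 ± 0.18, adjusted p = 0.0273) lost its call without platelets 4 or 5 or alone 2, 3, 4 or 5 (adjusted p up to 0.072).

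The remaining falls ranked 11 to 20 lay outside these lists. Padi1, which converts arginine to citrulline in proteins, had 6.49, 6.44, 6.64, 7.41 and 6.90 with platelets, against 9.23, 8.70, 8.91, 9.03 and 9.90 alone (−2.38 ± 0.23, adjusted p = 7.63e-05). The transcriptional cofactor Eya2 had 5.72, 5.92, 6.70, 6.43 and 5.97 with platelets, against 8.23, 8.41, 8.06, 8.21 and 8.76 alone (−2.19 ± 0.20, adjusted p = 5.5e-05). Both were lower on every array with platelets by more than 1 log2. In all, 199 of the 864 changed genes (23.03%) stood on any of the 42 lists, so most of the response lay outside them. Where a changed gene had a measured neighbour downstream on its chromosome, that neighbour had changed too in 75 of 859 cases (8.73%, against 4.55% of all genes), 64 times in the same direction. Besides Epgn, Ereg and Btc, runs of 3 falls included Ddt, Gstt3 and Gstt1, and runs of 3 rises included Ly75, Pla2r1 and Itgb6. Probes that overlap between neighbours were not looked for here.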

How the data were processed

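RNA of Ep5 (EpRas) cells was hybridised to exon arrays (13 used) and, for other samples, to gene arrays (6 used). The deposited values are log2 expression levels per probe set, made by the authors with Partek 6.4 (exon arrays) or 6.5 (gene arrays) and RMA, per the submitters' processing notes. The tables were normalized separately, so tests stay within a table. Levels near the background understate differences, and precision is limited by how many arrays there are. Groups followed the source names and titles. The log2 values were fitted with limma 3.58.1 (R 4.3.3; lmFit and eBayes, Benjamini-Hochberg over all genes, threshold 0.05), with all 13 exon arrays sharing 1 estimate of the spread. Marker lists were compared with exact two-sided permutation tests. The members and lists were chosen with earlier results of these data known. Genes described are ranks 11 to 20 by size in each direction among those past both controls in every fit without 1 array and with no overlap; up to 3 kept members and the first member of each list; the 5 called genes with the highest level alone in each direction; and members of the lists or of runs of neighbours beyond these, Mmp10, Mmp13 and the first 3 ranks, named after their values were seen.

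On simulated data for this comparison over 18997 genes, changes of 0.5, 1, 2 and 3 log2 were set in 50 genes each. They were recovered in 54%, 90%, 98% and 100%, with 12 false calls of 183. In the simulation each gene varied independently and equally on every array. The weights of the real arrays ran from 0.32 (alone 5) to 3.06 (platelets 1), so these rates need not hold for the data. The main fit did not pair the samples by number. Same-numbered arrays with platelets and alone had correlations of their deviations from the group means of −0.26, 0.48, 0.50, 0.06 and 0.58. Arrays of different numbers were not compared in this way, so these values do not decide whether the numbers mark pairs. With the number as a block, 1326 genes passed on the exon arrays. Alternatives were the arrays and blocks in the fit, normalization, array weights, a filter on low levels, the empirical Bayes setting, the probe sets and each array left out. The fits across sets of numbers and held-out numbers were chosen after seeing the data. Promoters came from RefSeq (GRCm38.p6).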

Additional observations from a re-analysis of the deposited data

Results flagged for a closer look

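Among the named genes, 30 of 344 groups of 5 arrays (8.72%) held an array whose gap to its nearest neighbour was large for the range of the group by Dixon's criterion, which chance meets in about 1 in 20 groups. Platelets 4 and platelets 5 held 8 each, alone 1 held 6, alone 4 and alone 5 held 3 each, and platelets 2 and platelets 3 held 1 each.

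Platelets 4 stood apart in Ncam1 at 7.23, in Bhlhe40 at 10.82, in Gstt1 at 6.61 and in Igf1r at 8.83. It also stood apart in Ccl2 at 5.17, in Elovl6 at 9.76, in Rhoq at 6.999 and in Grhl2 at 8.68. Platelets 5 stood apart in Sdhb at 8.94, in Hspa8 at 12.23, in Lcn2 at 9.78 and in Ehf at 7.06. The same array did so in P2ry2 at 7.07, in Bst2 at 7.03, in Cdkn2d at 4.74 and in Mmp13 at 7.34. Platelets 2 stood apart in Mgat3 at 4.82 and platelets 3 in Anxa9 at 4.72.

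Among cells alone, alone 1 stood apart in Elovl6 at 9.61, in Clock at 6.56, in Ext1 at 8.68, in Cdh1 at 11.10, in Mki67 at 9.58 and in Emp1 at 12.02. Alone 4 did so in Tmeff1 at 8.80, in Dusp2 at 4.65 and in Fos at 4.52. Alone 5 did so in Bhlhe41 at 8.93, in Tjp1 at 9.52 and in Cdkn2d at 5.67.

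Probe sets without a gene symbol were used in no comparison above. In a limma fit of all probe sets of the exon arrays, 79 of them passed the threshold for platelets against alone, of 19477 tested (0.406%), 43 higher and 36 lower. Of probe sets with 1 symbol, 672 of 22781 passed (2.95%).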

How the results depend on the processing

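For platelets against alone, 864 genes passed (394 higher, 470 lower). The count became 1326 with a replicate block (750 lower), 1750 with array weights (773 higher, 977 lower) and 27 in numbers 4 and 5 (13 higher, 14 lower), where fewer arrays were fitted; for the block and the weights the cause was not tested. Leaving out each array gave 632 to 888 genes, 278 to 424 higher and 354 to 500 lower. Quantile normalization applied again gave 452 higher and 361 lower. The other alternatives stayed within 1.5 times of 864. Platelets against mixed at lysis gave 699 genes and, leaving out each array, 397 to 798 (161 to 333 higher, 236 to 467 lower), where the fits lacking mixed at lysis 5 or 6 gave 464 and 397. Mixed at lysis against alone gave 9 genes, 1 with the replicate block (1 higher), and 1 to 14 leaving out each array (1 to 14 higher, 0 to 1 lower). It gave 14 without platelets 4, 3 without each of alone 1, 2 and 3, 4 without alone 5, and 2 and 1 in the fits lacking mixed at lysis 5 or 6. The gene arrays gave 133 genes, 454 with the replicate block, 30 without alone 8 and platelets 9, and 21 to 119 leaving out each array; without alone 9 there were 21, without alone 7 there were 41, without alone 8 there were 75, without platelets 8 there were 51 and without platelets 9 there were 66. Of 4124 comparisons of 172 named genes with their alternatives, 3834 kept direction and side of the threshold, 194 lost the call, 41 gained it and 0 reversed a call. The other 55 changed sign in 17 genes that had not passed.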
